A study of Mus musculus with 3 samples.

Results

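The transcripts of 9 receptors through which hormones, nutrient lipids and neurotransmitters act on islet cells were followed in single islet cells of WT mice and of mice that had lost Taf4 in beta cells. The 9 genes, *Glp1r*, *Gipr*, *Gcgr*, *Ffar1*, *Gpr119*, *Sstr3*, *Adra2a*, *Galr1* and *Insr*, were chosen by name as islet hormone and nutrient receptors, out of 17226 genes listed in at least 1 of the count tables. Their UMIs (unique molecular identifiers, 1 per captured transcript) were summed over the beta, alpha and delta cells of each library. Beta cells were those with 20% or more of their UMIs from *Ins2* and under 3% from *Gcg*. Alpha cells had 15% or more from *Gcg* and under 10% from *Ins2*, and delta cells 5% or more from *Sst*. In the 1-week library, only cells of 5000 or more UMIs were taken, with minimum shares of 5% *Ins2*, 8% *Gcg* and 1.5% *Sst*. No receptor entered these rules.

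Receptors on islet cells set how much hormone is released at a given glucose level. The receptors for GLP-1, GIP and glucagon and the lipid receptor GPR119 couple to Gs and raise cAMP, which amplifies insulin secretion, while the fatty acid receptor FFAR1 acts through Gq and calcium. The somatostatin receptor SSTR3, the alpha2A-adrenergic receptor and the galanin receptor GALR1 couple to Gi and restrain secretion, and the insulin receptor is a tyrosine kinase through which insulin acts back on islet cells.

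Taf4 is a subunit of TFIID, the complex that binds at transcription start sites, so the 250 bases before the annotated start are shown for 3 receptors whose levels in beta cells ended on different sides of WT. Windows from RefSeq (GRCm38.p6, the mm10 assembly) matched 6 of the 9 genes: *Glp1r*, *Gcgr*, *Ffar1*, *Sstr3*, *Adra2a* and *Gpr119*. *Gcgr* (chr11:120530477-120530726, + strand) and *Gpr119* (chrX:48674479-48674728, - strand) were lower in beta cells at 5 weeks than in WT by over 2-fold, and *Adra2a* (chr19:54045009-54045258, + strand) was not. The sequences are written 5′ to 3′ toward the start, and capitals mark matches to the motifs searched. The *Gcgr* window precedes an annotated start inside the span of the gene, and so do both windows of *Sstr3*. The annotated *Ffar1* gene is 903 bases long, and whether its start is that of transcription was not tested.
Adra2a: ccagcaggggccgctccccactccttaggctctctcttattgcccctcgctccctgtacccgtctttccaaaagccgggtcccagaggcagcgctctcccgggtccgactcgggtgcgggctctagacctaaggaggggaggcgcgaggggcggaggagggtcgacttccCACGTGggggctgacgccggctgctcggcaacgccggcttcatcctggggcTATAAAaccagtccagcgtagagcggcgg
Gcgr: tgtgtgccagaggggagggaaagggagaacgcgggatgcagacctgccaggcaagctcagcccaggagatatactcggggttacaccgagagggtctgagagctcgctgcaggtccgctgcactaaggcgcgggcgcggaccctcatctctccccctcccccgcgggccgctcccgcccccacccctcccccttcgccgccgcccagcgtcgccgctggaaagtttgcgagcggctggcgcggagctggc
Gpr119: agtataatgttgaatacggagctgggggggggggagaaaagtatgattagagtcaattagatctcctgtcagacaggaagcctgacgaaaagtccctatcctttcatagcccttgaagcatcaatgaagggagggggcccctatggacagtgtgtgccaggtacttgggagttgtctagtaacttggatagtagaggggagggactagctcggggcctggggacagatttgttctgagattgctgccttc
The motifs searched for on both strands were TATAAA (the TATA box), CCAAT (the box bound by NF-Y), TAATTA (a homeodomain core), CAGATG (an E-box), CACGTG (the palindromic E-box) and TGACGTCA (the cAMP response element). No match overlapped another in these windows. *Adra2a* held CACGTG 80 bases and TATAAA 29 bases before the start, while *Gcgr* and *Gpr119* held none of the 6. The motifs did not divide the receptors by direction: of those lower at 5 weeks, *Sstr3* held CACGTG 31 bases before 1 of its annotated starts and CCAAT 90 bases before another, and *Ffar1* held CAGATG 59 bases before the start, while *Glp1r*, which was not lower, held none. Of all 32851 RefSeq windows of this length, 12.4% held TATAAA and 6.02% held CACGTG. CpG pairs numbered 22 in the *Adra2a* window, 24 in that of *Gcgr* and 3 in that of *Gpr119*, against a median of 6 over all windows.

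Each condition was measured in 1 library of live sorted islet cells, captured on the Chromium system of 10x Genomics and counted from transcript 3′ ends, all from C57/Bl6 mice. The WT library came from 300 islets of 1 mouse, labelled as a wild-type male. The mutant libraries came from 300 islets each, pooled from 2 males whose *Taf4* alleles, flanked by lox sites, had been deleted by tamoxifen through Cre-ERT2 expressed from *Ins1* in beta cells, and were taken 1 week or 5 weeks after inactivation. The study describes controls with the same Cre driver and intact *Taf4* that also received tamoxifen, whereas the label of the WT library gives wild type alone. With 1 library per condition there is no spread between animals and no test was made: intervals in parentheses are exact 95% intervals for counting error only. A difference is named here as past 2-fold when at least 30 UMIs were counted in the compared sums together and the ratio was 2 or more, or the inverse.

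The tables held 12000 barcodes in WT, 2295 at 1 week and 11229 at 5 weeks, with 19472212, 23131247 and 39408284 UMIs. Beta cells numbered 8271, 562 and 5685 in that order, alpha cells 2772, 172 and 3011, and delta cells 621, 38 and 1443. Median depth in beta cells was 1656 UMIs in WT, 24754.5 at 1 week and 3868 at 5 weeks, and 1524 of the 1-week barcodes lay outside all classes. Libraries shared 2 to 33 cell barcodes. The WT library goes against its label: it held 17357 UMIs of *Xist*, the RNA of X inactivation, and 0 of the Y-linked *Ddx3y*, *Eif2s3y*, *Kdm5d* and *Uty*, while the mutant libraries held 17 and 11 *Xist* UMIs and 1488 and 1349 of *Ddx3y*. Sex, animal, library and genotype therefore cannot be told apart in any comparison with the library labelled WT. Levels are given as CPM, a gene's UMIs scaled to the UMI total of the summed cells. *Taf4* itself stood at 4.68 CPM in WT beta cells, 7.53 at 1 week and 3.54 at 5 weeks, from 75, 113 and 99 UMIs. Which exons were deleted is not given in the sources used here, so 3′ tags of *Taf4* may lie outside the deleted part and do not check the labels. Beta markers were highest in beta cells for 13 of 15 genes in every library, alpha markers in alpha cells for 8 or 9 of 10, and delta markers in delta cells for 6 of 6. Markers of other cell types were counted in the classes. *Ppy*, a marker of pancreatic polypeptide cells, stood between 6377 and 9935 CPM in alpha cells and between 18830 and 26166 CPM in delta cells. In beta cells it stood at 172 CPM in WT, 77.7 at 1 week and 687 at 5 weeks. Whether *Ppy* came from RNA of other cells or was made by cells within the alpha and delta classes was not tested. The 10 acinar markers summed to 4971 CPM in WT beta cells, 15.9 at 1 week and 573 at 5 weeks. At 5 weeks 128 cells met the rules of both beta and delta and 73 those of both alpha and delta.

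The receptors were sparse transcripts. No WT beta cell held more than 2 UMIs of any of them, and the most in a single beta cell was 7, for *Adra2a* at 1 week. The 3′ assay counts transcript ends without regard to length, but how well an end is captured differs between genes, so levels are compared only within a gene.

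In beta cells at 5 weeks, *Gpr119*, *Ffar1*, *Gipr*, *Gcgr* and *Sstr3* were lower than in WT by more than 2-fold, *Galr1* was higher by more than 2-fold, and *Glp1r*, *Adra2a* and *Insr* lay within 2-fold. The 5 lower receptors of 9 compare with 5.39% of the 11315 genes with enough UMIs that were as much lower, and the 1 higher receptor with 8.60% that were as much higher. The receptors, and the lists used further below, were chosen with earlier results of these data known, so such shares only describe them. The median log2 ratio was -1.16 over the 9 receptors and 0.18 over all genes. At 1 week *Gipr* and *Gpr119* were lower than in WT by more than 2-fold and no receptor was as much higher, beside 3.27% and 55.7% of the 11114 genes tested. That 1-week comparison needs its own scale: hormone genes took 68.0% of UMIs in WT beta cells, 42.8% at 1 week and 66.3% at 5 weeks, and the median gene at 1 week stood 1.12 above WT in log2 CPM, or 0.28 with 7 hormone genes left out of the totals. All 9 receptors lay below that median of 1.12. Between 1 and 5 weeks 6 receptors were more than 2-fold lower and 1, *Galr1*, more than 2-fold higher, beside 47.0% and 3.07% of 11474 genes, with a median gene at -0.95.

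**Figure D1:**
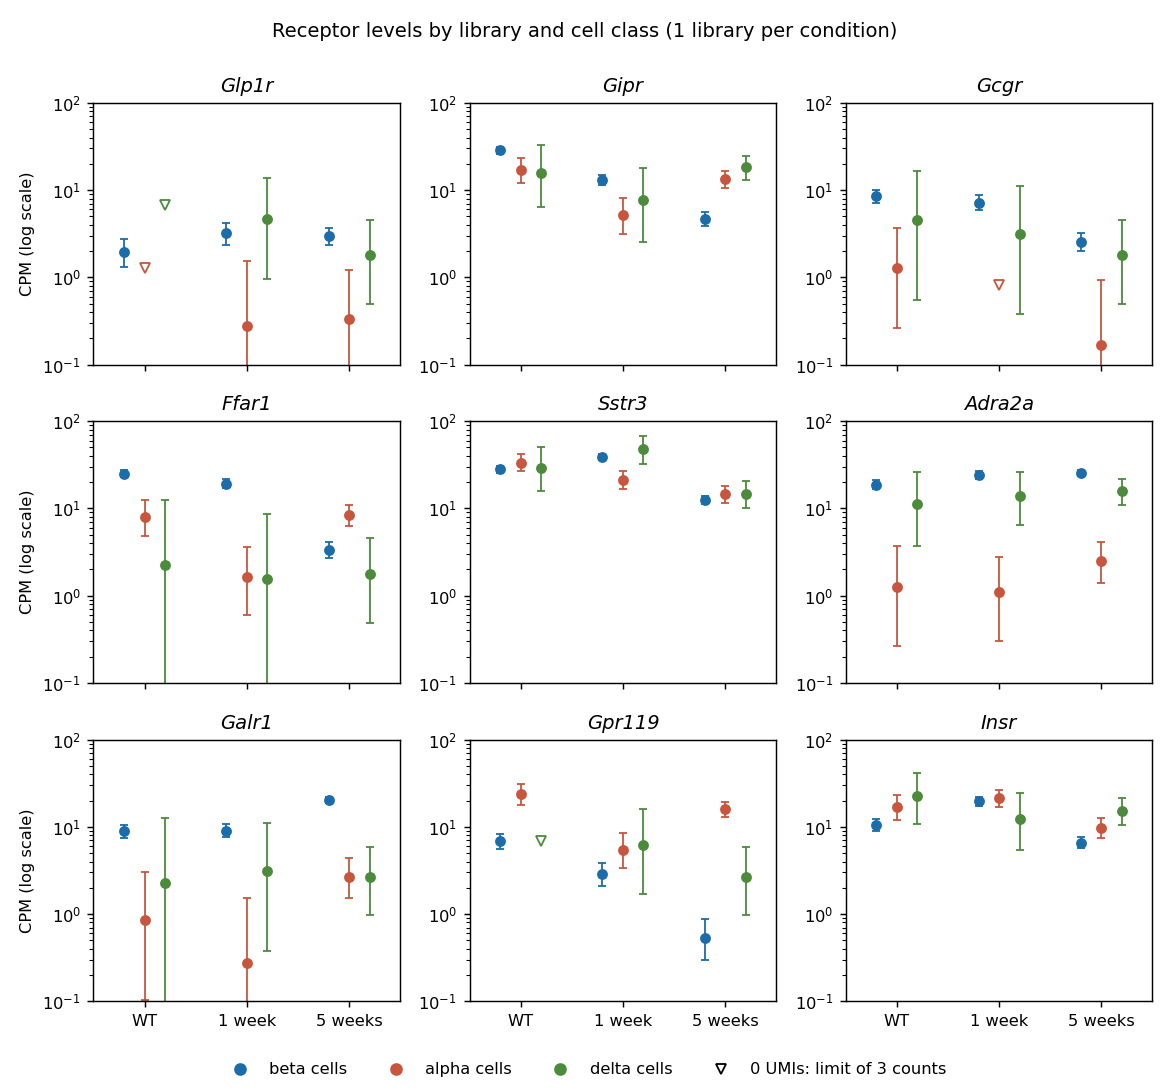
Level of each receptor in CPM (log scale) in beta, alpha and delta cells of the WT, 1-week and 5-week libraries, with exact 95% Poisson intervals that are clipped at the lower edge of the axis. Open triangles mark 0 UMIs and the level that 3 counts would give. *Gipr*, *Ffar1* and *Gpr119* are lower at each later time in beta cells, while *Galr1* stands highest at 5 weeks.

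Among the receptors of the glucagon family, *Gipr*, the receptor of the gut hormone GIP (chromosome 7 from 19156063 to 19170248), was lower in beta cells at each later time. It had 462 UMIs in WT, 28.8 CPM (26.2 to 31.6). At 1 week it had 196 UMIs, 13.1 CPM (11.3 to 15.03), and at 5 weeks 131 UMIs, 4.68 CPM (3.91 to 5.56). None of these intervals overlapped, and the 5-week level was 6.15-fold below WT, a log2 ratio of -2.62 (-2.91 to -2.34). The 1-week level was 2.20-fold below WT, a log2 ratio of -1.14 (-1.39 to -0.90) that was -1.98 with hormone genes left out of the totals and -2.26 with the median gene set to 0. The ratio of 5 weeks to 1 week, -1.48, was then -0.72 and -0.53, within 2-fold.

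*Gcgr*, the glucagon receptor, through which alpha cells act on beta cells (chromosome 11 from 120529185 to 120538989), was lower than in WT at 5 weeks, while its place at 1 week depended on the scale. WT beta cells had 137 UMIs, 8.54 CPM (7.17 to 10.1), and 1-week beta cells 108 UMIs, 7.20 CPM (5.91 to 8.69), with overlapping intervals. At 5 weeks 71 UMIs gave 2.54 CPM (1.98 to 3.20), 3.37-fold below WT and clear of both other intervals. The log2 ratio to WT was -1.75 (-2.19 to -1.33) at 5 weeks and -0.25 (-0.62 to 0.13) at 1 week. That 1-week ratio was -1.08 with hormone genes left out of the totals and -1.36 with the median gene set to 0, and the ratio of 5 weeks to 1 week, -1.50, was then -0.74 and -0.55.

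*Glp1r*, the receptor of the incretin GLP-1 (chromosome 17 from 30901867 to 30936510), was not lower, unlike its relatives. Its UMIs were few in beta cells: 31 in WT, 1.93 CPM (1.31 to 2.74), 48 at 1 week, 3.20 CPM (2.36 to 4.24), and 83 at 5 weeks, 2.97 CPM (2.36 to 3.68). All 3 intervals overlapped, and the log2 ratio of 5 weeks to WT was 0.62 (0.01 to 1.26). At 1 week it was 0.73 (0.05 to 1.43), which turns to -0.39 once the median of all genes is set to 0.

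Of the lipid receptors, *Ffar1*, the receptor of long-chain fatty acids (chromosome 7 from 30860568 to 30861470), was measured in WT beta cells with 403 UMIs, 25.1 CPM (22.7 to 27.7). The 1-week level was 19.1 CPM (17.0 to 21.5) from 287 UMIs and the 5-week level 3.32 CPM (2.68 to 4.07) from 93 UMIs. The 3 intervals were apart. Against WT the log2 ratio was -0.39 (-0.62 to -0.17) at 1 week and -2.92 (-3.26 to -2.59) at 5 weeks, 7.56-fold lower. How the difference divided between the times depended on the scale: the ratio of 1 week to WT was -1.23 with hormone genes left out of the totals and -1.51 with the median gene set to 0, and that of 5 weeks to 1 week, -2.53, was then -1.76 and -1.57. *Ffar3*, a receptor of short-chain fatty acids whose gene lies 4389 bases from *Ffar1*, was at 2.93 CPM (2.15 to 3.90) in WT beta cells, 1.40 (0.867 to 2.14) at 1 week and 0.179 (0.0580 to 0.417) at 5 weeks, from 47, 21 and 5 UMIs. *Ffar3* was singled out after its values were seen.

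*Gpr119*, the receptor of oleoylethanolamide and related lipids (chromosome X from 48667979 to 48674478), showed the lowest ratio of the 9. It had 110 UMIs in WT beta cells, 6.86 CPM (5.64 to 8.26), 43 at 1 week, 2.87 CPM (2.08 to 3.86), and 15 at 5 weeks, 0.536 CPM (0.300 to 0.884). The intervals did not overlap, and the log2 ratio to WT was -1.26 (-1.80 to -0.74) at 1 week and -3.68 (-4.56 to -2.89) at 5 weeks, 12.8-fold lower. The gene is X-linked and the library labelled WT is the one with *Xist*. The part of that difference in the *Gpr119* ratio was not tested, while the 5-week level was also 5.35-fold below that of the 1-week library, which like it held *Ddx3y*. That log2 ratio of -2.42 depended on the scale, at -1.66 with hormone genes left out of the totals and -1.47 with the median gene set to 0.

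The Gi-coupled receptors went different ways. *Sstr3*, a receptor of somatostatin (chromosome 15 from 78537014 to 78549365), had 452 UMIs in WT beta cells, 28.2 CPM (25.6 to 30.9), 584 at 1 week, 38.9 CPM (35.8 to 42.2), and 353 at 5 weeks, 12.6 CPM (11.3 to 14.0). The 5-week level was 2.23-fold below WT, a log2 ratio of -1.16 (-1.36 to -0.96), with no overlap between any of the 3. At 1 week the log2 ratio of 0.47 (0.29 to 0.65) turned to -0.37 with hormone genes left out of the totals and to -0.65 with the median gene set to 0. It was 0.20 when 1-week beta cells were taken by the rule of the other libraries, which gave 1140 cells.

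*Adra2a*, the receptor through which noradrenaline stops insulin release (chromosome 19 from 54045259 to 54048982), was held or slightly higher. Beta cells had 301 UMIs in WT, 18.8 CPM (16.7 to 21.0), 362 at 1 week, 24.1 CPM (21.7 to 26.8), and 718 at 5 weeks, 25.7 CPM (23.8 to 27.6). Both mutant intervals lay above that of WT and overlapped each other. The log2 ratio at 5 weeks was 0.45 (0.26 to 0.65) and at 1 week 0.36 (0.14 to 0.59), which turned to -0.75 at 1 week with the median gene set to 0.

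*Galr1*, a receptor of the nerve peptide galanin (chromosome 18 from 82392496 to 82406777), was the receptor that stood higher. WT beta cells had 142 UMIs, 8.85 CPM (7.46 to 10.4), and 1-week beta cells 135 UMIs, 9.002 CPM (7.55 to 10.7). At 5 weeks 565 UMIs gave 20.2 CPM (18.6 to 21.9), 2.28-fold above WT and apart from both other levels. The log2 ratio was 1.19 (0.92 to 1.47) at 5 weeks and 0.02 (-0.33 to 0.37) at 1 week, or -1.09 at 1 week with the median gene set to 0.

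*Insr*, the insulin receptor (chromosome 8 from 3150922 to 3279649), had 170 UMIs in WT beta cells, 10.6 CPM (9.06 to 12.3), 293 at 1 week, 19.5 CPM (17.4 to 21.9), and 184 at 5 weeks, 6.58 CPM (5.66 to 7.60). It was highest at 1 week and lowest at 5 weeks, without overlap. The log2 ratio to WT was -0.69 (-0.997 to -0.38) at 5 weeks, within 2-fold. At 1 week it was 0.88 (0.60 to 1.16), or 0.04 with hormone genes left out of the totals and -0.24 with the median gene set to 0. The rule for 1-week beta cells also mattered: with that of the other libraries, which took 1140 cells, the ratio was 0.43.

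**Figure D2:**
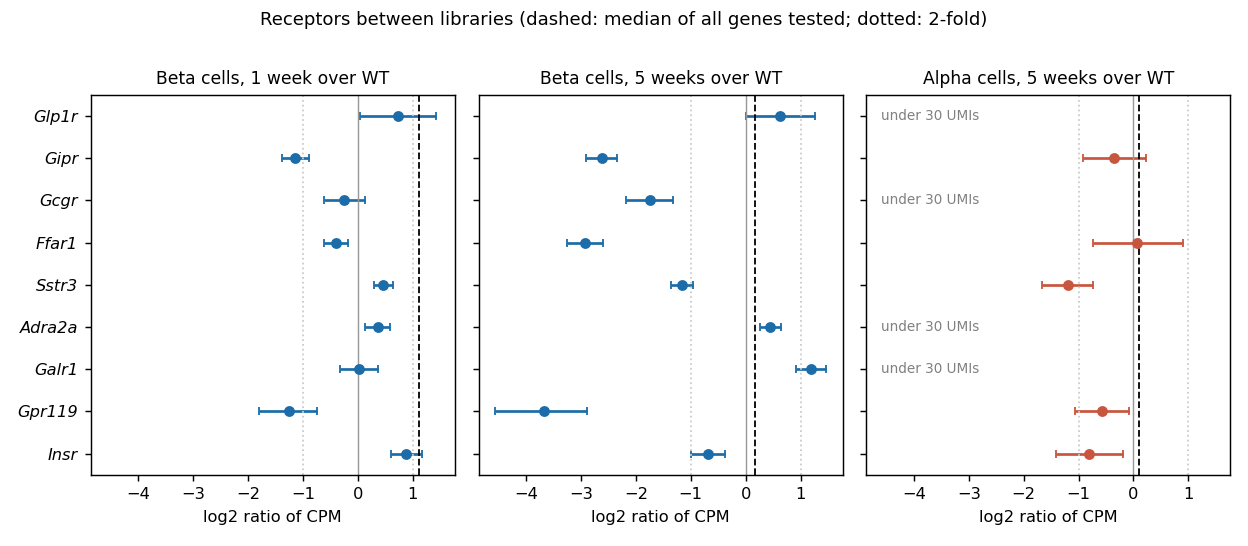
Log2 ratio of CPM for each receptor with exact 95% counting intervals in beta cells at 1 week and at 5 weeks and in alpha cells at 5 weeks, each over WT. Dashed lines mark the median of all genes tested (1.12, 0.18 and 0.10) and dotted lines 2-fold. At 5 weeks *Gpr119*, *Ffar1* and *Gipr* lie below -2 in beta cells but between -0.58 and 0.06 in alpha cells.

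Because cells were deeper at 5 weeks than in WT, beta cells of like depth were also compared, in bands of 1000 to 2000, 2000 to 4000 and 4000 to 8000 UMIs per cell. *Gipr* was lower at 5 weeks by 5.46-, 3.79- and 4.42-fold in the 3 bands, *Ffar1* by 4.53-, 7.68- and 9.501-fold, *Gcgr* by 4.55-, 3.06- and 2.57-fold and *Sstr3* by 2.89-, 2.37- and 1.88-fold. *Galr1* was higher by 3.46-, 2.25- and 1.76-fold and *Adra2a* by 1.84-, 1.37- and 1.81-fold. *Gpr119* had 3 UMIs at 5 weeks against 47 in WT in the lowest band, 1 against 50 in the middle one and 4 against 11 in the deepest, where WT had 192 cells. *Glp1r* was higher at 5 weeks and *Insr* lower in each band, so the direction was the same in every band for all 9 receptors. The interval of the ratio reached no difference for *Gpr119* and *Insr* in the lowest band, for *Glp1r* in the middle one and for *Gcgr*, *Galr1*, *Glp1r* and *Insr* in the deepest one.

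**Figure D3:**
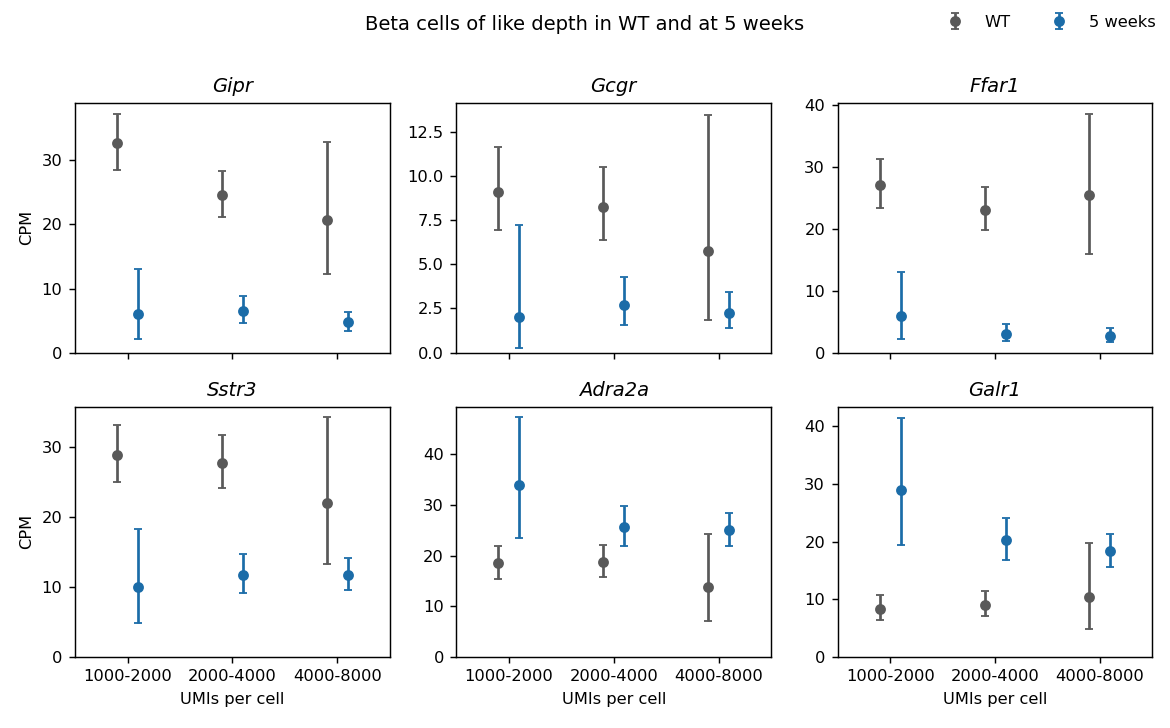
CPM with exact 95% Poisson intervals of 6 receptors in beta cells of WT (grey) and 5 weeks (blue), by UMIs per cell. The 5-week points of *Gipr*, *Gcgr*, *Ffar1* and *Sstr3* lie below those of WT in all 3 bands and those of *Adra2a* and *Galr1* above.

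Alpha cells do not normally express *Ins1*, the gene that drives Cre. The study reports, however, that some beta cells without Taf4 turned into glucagon-expressing cells. It traced beta cells with a GFP reporter switched on by the same Cre. At a later time than those sampled here, it found GFP in most glucagon-expressing cells inside the islets, but not in alpha cells at the islet edge. The 5-week alpha class may therefore hold cells of beta origin, and their share was not tested. In alpha cells 5 receptors had enough UMIs: *Gipr*, *Ffar1*, *Sstr3*, *Gpr119* and *Insr*. *Sstr3* was the 1 that stood more than 2-fold lower at 5 weeks, and none stood as much higher, beside 1.69% and 6.25% of 9349 genes. WT alpha cells held it at 33.5 CPM (26.5 to 41.8) from 79 UMIs, 1-week alpha cells at 21.4 (16.9 to 26.7) from 78 and 5-week alpha cells at 14.6 (11.7 to 18.0) from 87. The log2 ratio of 5 weeks to WT was -1.20 (-1.66 to -0.74), so its interval overlapped that of the same ratio in beta cells.

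*Gipr*, *Ffar1* and *Gpr119*, which were over 6-fold lower in beta cells at 5 weeks, lay within 2-fold of WT in alpha cells. *Gipr* stood at 17.0 CPM (12.1 to 23.1) in WT alpha cells, 5.21 (3.14 to 8.14) at 1 week and 13.2 (10.5 to 16.5) at 5 weeks, from 40, 19 and 79 UMIs. *Ffar1* stood at 8.06 CPM (4.85 to 12.6), 1.65 (0.604 to 3.58) and 8.38 (6.22 to 11.0), from 19, 6 and 50 UMIs. *Gpr119* stood at 23.8 CPM (17.9 to 30.8), 5.49 (3.35 to 8.47) and 15.9 (12.9 to 19.5), from 56, 20 and 95 UMIs. The 1-week alpha cells were lowest for all 3, with intervals clear of both other libraries, but they were 172 cells of a median depth of 21635.5 UMIs, against 763 in WT and 1853 at 5 weeks. Between WT and 5 weeks the log2 ratio was -0.36 (-0.92 to 0.23) for *Gipr*, 0.06 (-0.73 to 0.90) for *Ffar1* and -0.58 (-1.07 to -0.07) for *Gpr119*. None of these intervals overlapped that of the same gene in beta cells. The *Ffar1* ratio turned to -0.04 with the median gene set to 0.

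The order of beta and alpha cells differed between WT and 5 weeks for *Gipr* and *Ffar1*. *Gipr* was 1.70-fold higher in beta than in alpha cells in WT, and 2.83-fold higher in alpha than in beta cells at 5 weeks. *Ffar1* was 3.12-fold higher in beta cells in WT and 2.52-fold higher in alpha cells at 5 weeks. *Gpr119* was higher in alpha cells in both, by 3.46-fold in WT and 29.7-fold at 5 weeks.

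*Insr* in alpha cells had 40 UMIs in WT, 17.0 CPM (12.1 to 23.1), 77 at 1 week, 21.1 CPM (16.7 to 26.4), and 58 at 5 weeks, 9.72 CPM (7.38 to 12.6). Its log2 ratio of 5 weeks to WT was -0.80 (-1.41 to -0.19), close to that of beta cells.

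*Ppy* transcripts touched the alpha results. Alpha cells with 1% or more of their UMIs from *Ppy* numbered 656 in WT, 24 at 1 week and 594 at 5 weeks. In WT they held *Gpr119* at 43.7 CPM (28.3 to 64.5), against 17.4 (11.8 to 24.6) in the other 2116 alpha cells. At 5 weeks the values were 9.02 CPM (4.66 to 15.7) and 17.9 (14.3 to 22.2). Without the cells rich in *Ppy* the log2 ratio of *Gpr119* between 5 weeks and WT was 0.04 in place of -0.58, and that of *Insr* was -1.02, past 2-fold.

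*Glp1r*, *Gcgr*, *Adra2a* and *Galr1* were near 0 in alpha cells. *Glp1r* had 0, 1 and 2 UMIs in the WT, 1-week and 5-week libraries, where 0 in WT allows up to 1.27 CPM, and *Gcgr* had 3, 0 and 1. *Adra2a* had 3, 4 and 15 UMIs and *Galr1* 2, 1 and 16. Free RNA from beta cells can give such UMIs: at the ratio of receptor to *Ins2* found in beta cells, the *Ins2* UMIs of the alpha cells at 5 weeks would come with 8.16 UMIs of *Adra2a* and 6.42 of *Galr1*. In WT the same calculation gave 1.24 UMIs for *Gcgr* and 4.17 for *Gipr*, beside 3 and 40 counted. The part of free RNA in these counts was not tested further.

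Delta cells gave enough UMIs for *Gipr*, *Sstr3*, *Adra2a* and *Insr*. No receptor passed 2-fold between 5 weeks and WT, where 2.61% of 7171 genes were as much lower and 8.91% as much higher, and every one of the 4 intervals reached no difference. *Sstr3* lay just inside the limit, with 13 UMIs in WT, 29.5 CPM (15.7 to 50.4), 31 at 1 week, 48.1 CPM (32.7 to 68.2), and 33 at 5 weeks, 14.8 CPM (10.2 to 20.8). The 5-week level gave a log2 ratio of -0.996 (-1.96 to 0.05) that was -1.07 with the median gene set to 0. *Gipr* had 7 UMIs in WT, 15.9 CPM (6.38 to 32.7), 5 at 1 week, 7.75 CPM (2.52 to 18.1), and 41 at 5 weeks, 18.4 CPM (13.2 to 24.9).

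*Adra2a* in delta cells had 5 UMIs in WT, 11.3 CPM (3.68 to 26.5), 9 at 1 week, 14.0 CPM (6.38 to 26.5), and 35 at 5 weeks, 15.7 CPM (10.9 to 21.8). At 5 weeks its interval in delta cells lay above that in alpha cells, at 2.51 CPM (1.41 to 4.14). The *Ins2* UMIs of the 5-week delta cells would come with 10.6 UMIs of *Adra2a*, beside the 35 counted. *Insr* had 10, 8 and 34 UMIs, at 22.7 CPM (10.9 to 41.7), 12.4 (5.35 to 24.4) and 15.2 (10.5 to 21.3). The other receptors had at most 6 UMIs in the delta cells of any library. *Galr1* had 6 at 5 weeks, where the *Ins2* UMIs of those cells, at 18.5% of the beta-cell *Ins2* level, would come with 8.34.

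Over all 9 sums (3 classes in 3 libraries) the order of levels placed *Gipr*, *Ffar1* and *Gcgr* highest in WT beta cells, *Adra2a* and *Galr1* highest in 5-week beta cells, and *Gpr119* highest in WT alpha cells. *Gipr* in WT beta cells was apart from its next lower level, in 5-week delta cells, whereas every level after that overlapped its neighbour. *Ffar1* in WT and in 1-week beta cells stood apart from each other and from the rest, and *Galr1* in 5-week beta cells from its next level. *Sstr3* and *Insr* formed gradients in which every level overlapped its neighbour, with 5-week beta cells last in both. *Glp1r* likewise had no gap, and its highest level, in 1-week delta cells, rested on 3 UMIs. These places of the last 3 genes depended on the scale. With hormone genes left out, *Sstr3* in 5-week beta cells stood at 37.4 CPM, above 27.3 in 5-week alpha and 22.8 in 5-week delta cells. *Insr* in 5-week beta cells then stood at 19.5 CPM, above 18.2 in 5-week alpha cells. *Glp1r* was then highest in 5-week beta cells, at 8.79 CPM.

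Genes whose pattern over these sums was most like that of a receptor were named by Pearson's r of log2(CPM + 10) among 8796 genes with at least 300 UMIs. These are descriptions over 9 points that share libraries and cell classes. For *Glp1r* and *Gcgr* every level lay below the 10 CPM added, so their patterns rest on small differences. The highest were 4.65 CPM from 3 UMIs for *Glp1r* and 8.54 CPM for *Gcgr*. For *Galr1* only the level in 5-week beta cells, 20.2 CPM, lay above 10 CPM. For *Gpr119* only those in WT and 5-week alpha cells did, at 23.8 and 15.9 CPM. The genes nearest to *Ffar1* were *Maob* (r = 0.90), *Ucn3* (0.89), the gene of a peptide of mature beta cells, and *Ddc* (0.88). *Gcgr* was nearest to *Gjd2* (0.93), which encodes the gap junction protein of beta cells, *Ppp1r1a* (0.92) and *Prss53* (0.92). *Adra2a* was nearest to *Gng12* (0.98), a G protein gamma subunit, *Pcsk1* (0.97), a proinsulin convertase, and *Itpkb* (0.95).

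*Galr1* was nearest to *Hapln4* (0.96), the oestrogen receptor gene *Esr1* (0.90) and *Hist2h2aa1* (0.89). *Glp1r* was nearest to *Akr1c14* (0.98), *Tsga10* (0.96) and *Gpsm1* (0.95), *Gipr* to *Hepacam2* (0.89), *Cd79a* (0.87) and *Gramd3* (0.83), and *Gpr119* to *Tmsb15l* (0.91), *Fam20a* (0.90) and *Kctd12b* (0.88). *Sstr3* was nearest to *Timm10b* (0.97), *Gmppa* (0.93) and *Ndufv3* (0.91), and *Insr* to *Mms19* (0.93), *Tgoln1* (0.93) and *Snapc4* (0.92). Between receptors, r was highest for *Adra2a* with *Galr1* (0.80) and lowest for *Adra2a* with *Gpr119* (-0.71).

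Other receptors of islet cells were taken from a list. Of 43 on it, 19 had enough UMIs in beta cells, and at 5 weeks 5 were more than 2-fold lower and 1 higher than in WT, 26.3% and 5.26% beside 5.39% and 8.60% of all genes tested, with a median log2 ratio of -0.28 beside 0.18. *Prlr*, the prolactin receptor, which serves beta-cell growth in pregnancy, had 363 CPM in WT, 106 at 1 week and 85.2 at 5 weeks, 4.26-fold below WT. *Gabbr2*, a subunit of the GABA-B receptor, had 8.04, 9.20 and 2.04 CPM, 3.95-fold below WT at 5 weeks. *P2ry1*, a purine receptor, was next with 27.1, 8.34 and 13.7 CPM and stayed within 2-fold at 5 weeks.

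Among the others that were more than 2-fold lower, *Ffar3* had 5 UMIs at 5 weeks against 47 in WT and *Cnr1*, a cannabinoid receptor, 6 against 30. *Galr3*, a second galanin receptor, was the 1 higher, with 1.93 CPM in WT, 9.27 at 1 week and 4.57 at 5 weeks, a log2 ratio of 1.24 (0.67 to 1.86) at 5 weeks. *Ffar4*, a receptor of long-chain fatty acids, and *Adgrg1*, an adhesion receptor, followed at 0.54 and 0.46.

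Genes that carry the receptors' signals came from a pair of lists. Among 36 tested of 42 genes of G protein and cAMP signalling, 2 were more than 2-fold lower and 2 higher at 5 weeks, 5.56% each way beside 5.39% and 8.60% of all genes, with a median log2 ratio of -0.02. *Gnai1*, an inhibitory G protein alpha subunit, had 8.60 CPM in WT, 3.801 at 1 week and 1.86 at 5 weeks, 4.63-fold below WT. *Prkacb*, a catalytic subunit of protein kinase A, had 98.1, 120 and 43.7 CPM, 2.24-fold below WT at 5 weeks, and *Crem*, a cAMP-responsive transcription factor, had a log2 ratio of -0.82.

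*Gna11*, a Gq-class alpha subunit, was higher, with 32.4 CPM in WT, 173 at 1 week and 65.7 at 5 weeks, a log2 ratio of 1.02 that was 0.84 with the median gene set to 0. *Plcb3*, a phospholipase C downstream of Gq named for being past the limit, had 45 UMIs against 11. *Rgs16* and *Crtc2* followed at 0.89 and 0.81. In insulin signalling 27 of 28 genes were tested, 0 were more than 2-fold lower and 1 was higher, *Pik3cb* with 71 UMIs against 18, fewer in share than among all genes, and the median was 0.07. *Irs1* lay at -0.95, *Shc1* at -0.62 and *Akt1* at -0.55, and at the other end *Trib3* at 0.87, *Grb2* at 0.83 and *Ptpn1* at 0.79. In alpha cells at 5 weeks none of 35 genes of G protein and cAMP signalling passed 2-fold in either direction. Of all 9349 genes tested there, 1.69% were as much lower and 6.25% as much higher. Among 15 other receptors 1 was lower and 0 higher, and among 24 insulin-signalling genes 0 were lower and 2 higher.

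**Figure D4:**
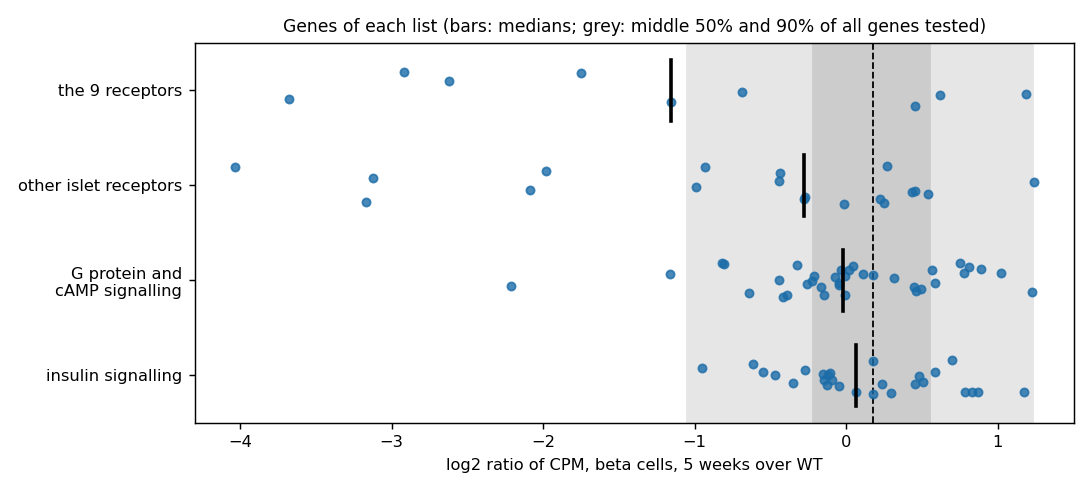
Log2 ratio of CPM in beta cells at 5 weeks over WT for each gene with enough UMIs, 1 point per gene, spread vertically for view. Bars mark the median of each list (-1.16, -0.28, -0.02 and 0.07), grey bands the middle 50% and 90% of all genes tested, and the dashed line their median of 0.18.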

How the data were processed

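Islet cells of 1 WT library and of 1 Taf4 mutant library each at 1 and 5 weeks were analysed. The values are raw UMI counts per gene and barcode as deposited by the authors. The submitters' processing notes name bcl2fastq 2.17.1.14, Cell Ranger 3.1, Seurat 3.1.4 and mm10. The methods state that unexpressed genes were left out, but 822 genes of the WT table had 0 UMIs. For WT alone, the authors discarded multi-hormone cells and DoubletFinder doublets and brought the library down to 12000 cells. No doublet caller was run here, and cells meeting 2 class rules were counted in both.

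No deposited barcode was filtered out beforehand, but barcodes outside the 3 classes, which at 1 week include all under 5000 UMIs, entered no comparison. UMIs were summed per library and class, and a gene not listed in a table was taken as 0. At 1 week the upper limits of 3% *Gcg* in beta and 10% *Ins2* in alpha cells were kept. Levels are CPM with exact Poisson intervals, and ratios have exact conditional (Clopper-Pearson) intervals at 95%. UMIs share cells and libraries, so these cover counting error only. The upper limit for a gene with 0 UMIs was set at 3 counts. The interval code was tested on simulated data. Hormone genes were *Ins1*, *Ins2*, *Gcg*, *Sst*, *Ppy*, *Pyy* and *Iapp*.

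All 9 receptors are named. From each list of related genes the 3 highest and 3 lowest ratios in beta cells (5 weeks over WT) are named among genes with at least 100 UMIs, and for each receptor the 3 genes of highest r. *Plcb3*, *Pik3cb*, *Ffar3* and *Cnr1* were added with their values known, and 1 gene of the lists is counted but not reported here by name. The receptors and the lists were chosen with earlier results of these data known. Alternatives changed the class limits, the cells kept, the denominator, the scaling, the weight of cells and the UMI minimum. Python 3.11.15, numpy 2.4.6, scipy 1.17.1, pandas 2.3.3 and matplotlib 3.10.9 were used.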

Additional observations from a re-analysis of the deposited data

Results flagged for a closer look

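*Sstr3* in beta cells lay on different sides of WT at the 2 times, with a log2 ratio of 0.47 at 1 week and -1.16 at 5 weeks. It also lay on different sides in beta and alpha cells at 1 week, at 0.47 and -0.65. *Insr* in beta cells had 0.88 at 1 week and -0.69 at 5 weeks. These differences were not tested, since each condition had 1 library, and both 1-week ratios in beta cells lost their distance from WT or turned with another scaling. With the beta-cell rule of the other libraries at 1 week they were smaller, at 0.20 for *Sstr3* and 0.43 for *Insr*.

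Cells outside the 3 classes entered no comparison. At 1 week they held *Sstr3* at 35.7 CPM (29.98 to 42.2), against 12.6 (5.44 to 24.8) in such cells of WT, and *Insr* at 43.2 CPM (36.9 to 50.2), against 20.5 (10.9 to 35.0). They numbered 1524 at 1 week and 338 in WT, with hormone genes at 13.3% and 46.2% of their UMIs. With hormone genes left out of the totals, *Sstr3* stood at 41.1 CPM against 23.4 in WT and *Insr* at 49.8 against 38.1. The 2 groups were also unlike in makeup: the 10 acinar markers summed to 2757 CPM at 1 week and 125188 in WT.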

How the results depend on the processing

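In beta cells between WT and 5 weeks, 6 receptors stayed past 2-fold under the 10 settings that changed class limits, cells kept, denominator, scaling, weight of cells or UMI minimum. In the bands of like depth, *Sstr3* (1.88-fold lower) and *Galr1* (1.76-fold higher) lay within 2-fold in cells of 4000 to 8000 UMIs. *Glp1r* joined the 6, at 1.25, to make 7 with cells of 1000 to 4000 UMIs alone, a range chosen after seeing the data. The counts that rest on the 1-week library depended on the scale: without hormone genes in the totals 4 receptors in place of 2 passed between WT and 1 week and 3 in place of 7 between 1 and 5 weeks, and with the median gene set to 0 the numbers were 5 and 4. In alpha cells the count of 1 became 4 with a minimum of 1 UMI and 2 without cells of 1% or more *Ppy*, also chosen after seeing the data. In delta cells the count of 0 became 1 with the median gene set to 0 and 3 with a minimum of 1 UMI. With at least 100 UMIs, or without cells rich in *Ppy*, no receptor in delta cells had enough UMIs. Of 409 values of single receptors under alternatives, 365 stayed within the counting interval of the reported value, 44 moved beyond it and none that was past 2-fold changed sign. No replicate could be left out and no paired analysis was possible because each condition had 1 library. Depth limits the receptors with few UMIs most: 0 UMIs of *Gpr119* in WT delta cells allow up to 6.80 CPM.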
